A study of Mus musculus with 6 samples.

Results

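The genes described here are 40 cell cycle genes, taken from the named members of a fixed list and split by role into 14 genes of the G1/S transition, 10 of DNA replication and 16 of mitosis. A member was measured where the array annotation assigned a probe set to that gene alone, and where several did, the one reading highest on average in the 6 arrays stood for the gene. This held for 39 of the 40 members, out of 18193 genes measured in the same way. Ccnb1, a mitotic cyclin gene, had no such probe set and is not described further, which leaves 15 mitotic members. The genotype differences did not enter the choice, but the list was drawn up with earlier results of these data known.

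Cells divide by passing from G1 into S phase, copying their DNA, and then separating the copies in mitosis. D-type cyclins with CDK4 or CDK6, and E-type cyclins with CDK2, phosphorylate the retinoblastoma family (RB1 and RBL1), which releases E2F factors to switch on genes for DNA synthesis. The MCM helicase, loaded by CDC6 and CDT1, then opens the DNA. Cyclin A and cyclin B with CDK1 drive entry into mitosis, and CDC20 with the anaphase promoting complex ends it. Many mitotic genes carry a CHR element, a short promoter sequence through which the DREAM and MuvB complexes repress them in resting cells and activate them before mitosis. Cells of the early mouse embryo and embryonic stem (ES) cells divide quickly.

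The samples were Flk1+ cells, a culture counterpart of the haemangioblast, isolated from embryoid bodies at day 4 of suspension culture without leukaemia inhibitory factor. The 3 wild-type samples came from Ldb1+/+ and the 3 knockout samples from Ldb1-/- mouse ES cells. LDB1 is an adaptor protein that joins LIM-domain proteins and DNA-bound factors in blood cells. The labels call the replicates biological and number them 1 to 3 in each genotype. They do not say what was separate between them, how many ES cell clones were used, or what a number stands for. The p-values therefore set a difference against the spread between these samples, whose source is not known.

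Values are deposited log2 expression levels on Affymetrix arrays, where a difference of 1 is 2-fold. Array medians lay between 5.71 and 5.77. Ldb1 itself read 7.78, 7.31 and 8.31 in the wild-type arrays and 7.25, 6.60 and 8.25 in the knockout arrays, groups that overlapped (limma, adjusted p = 1.00; adjusted p = 0.481 with the block by replicate number). The labels do not give the deleted part of the gene, so its 1 probe set may lie outside it and does not check the genotype. Of the markers of the haemangioblast and early endothelium, Kdr, the gene of Flk1, read 11.33 to 12.44 and Etv2 11.30 to 12.56 over the 6 arrays. Pecam1, of more mature endothelium, read 4.31 to 5.29, below the median of all probe sets. Cdh5 and Tek, of the same list, read 4.49 to 7.32 and 4.76 to 8.09, on both sides of that median. The arrays of number 3 stood apart in both genotypes: the gap between the 3′ and 5′ control probe sets of Gapdh was 1.54 and 1.44 there and 3.37 to 4.20 in the others.

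Letters of the promoters were compared by role, since the 3 groups are known for different control elements. RefSeq promoter windows of build GRCm38.p6, from 250 bases before to 50 after a transcript start, were at hand for 31 of the 39 measured members, 34 windows in all. The E2F motif was searched as TTTCCCGC, TTTCGCGC, TTTGCCGC or TTTGGCGC, the CHR as TTTGAA, and the NF-Y box as CCAAT, each on both strands. An E2F match stood in 6 of 10 replication windows (60.0%), in 3 of 12 G1/S windows (25%) and in 1 of 12 mitotic windows (8.33%), beside 2.26% of all 32851 windows. The order of the roles did not carry over to the further cell cycle genes described below, where it stood in 20.0% of 35 replication, 26.7% of 30 G1/S and 9.30% of 43 mitotic windows. The CHR match was most frequent in the mitotic windows. It stood in 9 of 12 mitotic windows (75%), in 1 of 10 replication windows and in 0 of 12 G1/S windows, beside 17.9% of all windows. CCAAT stood in 11 of 12 mitotic windows, 8 of 10 replication windows and 5 of 12 G1/S windows (41.7%), beside 37.4% of all. A match is a description of letters, and factor binding was not measured.

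The 250 bases before the start are shown, 5′ to 3′, for 6 members on which the results below turn. Cdk2 and Mcm6 are the members whose genotypes did not overlap, and Mcm2, Cdk1, Kif11 and Cdc25b are members that moved with the replicate number. Capitals mark E2F, CHR and CCAAT matches on either strand, and matches that overlap run together.
Cdk2 (chr10:128705052-128705301, minus strand): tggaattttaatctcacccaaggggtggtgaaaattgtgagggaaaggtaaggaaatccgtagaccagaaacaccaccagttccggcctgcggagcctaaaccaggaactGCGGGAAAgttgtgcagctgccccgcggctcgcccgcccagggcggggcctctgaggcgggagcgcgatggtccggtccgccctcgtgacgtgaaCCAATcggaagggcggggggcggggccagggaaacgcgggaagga
Mcm6 (chr1:128359706-128359955, minus strand): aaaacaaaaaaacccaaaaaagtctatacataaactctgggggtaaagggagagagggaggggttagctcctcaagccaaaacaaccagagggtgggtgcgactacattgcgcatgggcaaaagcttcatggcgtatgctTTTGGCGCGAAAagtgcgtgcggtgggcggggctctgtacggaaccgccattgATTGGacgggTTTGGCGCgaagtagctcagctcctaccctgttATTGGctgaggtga
Mcm2 (chr6:88898781-88899030, minus strand): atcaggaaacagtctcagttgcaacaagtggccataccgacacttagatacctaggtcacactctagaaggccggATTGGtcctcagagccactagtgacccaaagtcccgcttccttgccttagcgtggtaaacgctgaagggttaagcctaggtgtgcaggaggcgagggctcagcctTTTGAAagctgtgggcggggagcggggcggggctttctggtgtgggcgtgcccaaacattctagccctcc
Cdk1 (chr10:69352913-69353162, minus strand): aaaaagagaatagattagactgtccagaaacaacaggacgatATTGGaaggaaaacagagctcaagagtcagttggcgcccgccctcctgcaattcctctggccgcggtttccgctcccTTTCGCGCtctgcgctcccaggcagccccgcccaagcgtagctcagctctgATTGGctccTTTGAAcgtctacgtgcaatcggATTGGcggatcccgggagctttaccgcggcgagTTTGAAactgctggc
Kif11 (chr19:37376132-37376381, plus strand): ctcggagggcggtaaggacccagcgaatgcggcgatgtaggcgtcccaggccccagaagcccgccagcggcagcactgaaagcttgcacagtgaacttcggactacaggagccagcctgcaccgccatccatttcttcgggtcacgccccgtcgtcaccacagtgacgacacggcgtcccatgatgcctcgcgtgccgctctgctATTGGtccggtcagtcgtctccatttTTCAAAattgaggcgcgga
Cdc25b (chr2:131186698-131186947, plus strand): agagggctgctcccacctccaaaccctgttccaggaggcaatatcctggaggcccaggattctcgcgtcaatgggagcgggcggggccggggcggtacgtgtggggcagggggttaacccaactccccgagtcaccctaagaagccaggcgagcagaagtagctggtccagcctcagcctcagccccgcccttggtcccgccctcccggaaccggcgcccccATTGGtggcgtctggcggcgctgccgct
Within these bases Mcm6 held 3 E2F matches, of which a pair on opposite strands overlaps, and 0 CHR matches. Cdk1 held 1 E2F, 2 CHR and 3 CCAAT matches, and Kif11 held 1 CHR match. Cdc25b held 1 CCAAT match and neither of the others.

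No cell cycle gene passed the test between knockout and wild-type cells, as held for nearly all genes. The median size of a difference was 0.12 over the members and 0.11 over all genes. The limma fit called 0 of 39 members at an adjusted p under 0.05 (lowest adjusted p = 1.00), where 4 of 18193 genes were called, or 0.022%. With the replicate number as a block it again called 0 of 39 (lowest adjusted p = 0.470), beside 62 genes or 0.341% of all. Unadjusted p-values below 0.05 were found for 1 of 39 members, Cdk2, beside 3.85% of all genes. In the blocked fit they were found for 2 of 39, Ccnd2 and Cdk2, beside 8.94% of all genes. Both were higher in knockout, as were 3.88% of all genes at that p, and 0 were lower, beside 5.06%. The genotypes did not overlap for 2 of 39 members, beside 7.92% of all genes. The largest difference of any member was 1.28-fold. In size, 32 of 39 differences were smaller than 0.25 on the log2 scale, as were those of 14608 of all 18193 genes. No member differed by more than 0.5, beside 4.69% of all genes.

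The intervals show how large a difference these arrays leave room for. Without the block, the 95% interval of the difference (limma) lay inside 2-fold in either direction for 35 of 39 members, against 86.2% of all genes. The other 4 were Ccnd2, Cdk6, Cdk1 and Cdc25b, whose upper bounds were 1.17, 1.15, 1.17 and 1.10. With the block, all 39 intervals lay inside 2-fold, as did those of 17477 of all 18193 genes. Of the 39, 31 (79.5%) lay inside 1.5-fold, against 73.2% of all genes. The most extreme blocked bounds were −0.59, for Aurkb, and 0.69, for Ccnd2 and Rb1. A miss of the threshold does not show equal levels.

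**Figure D1:**
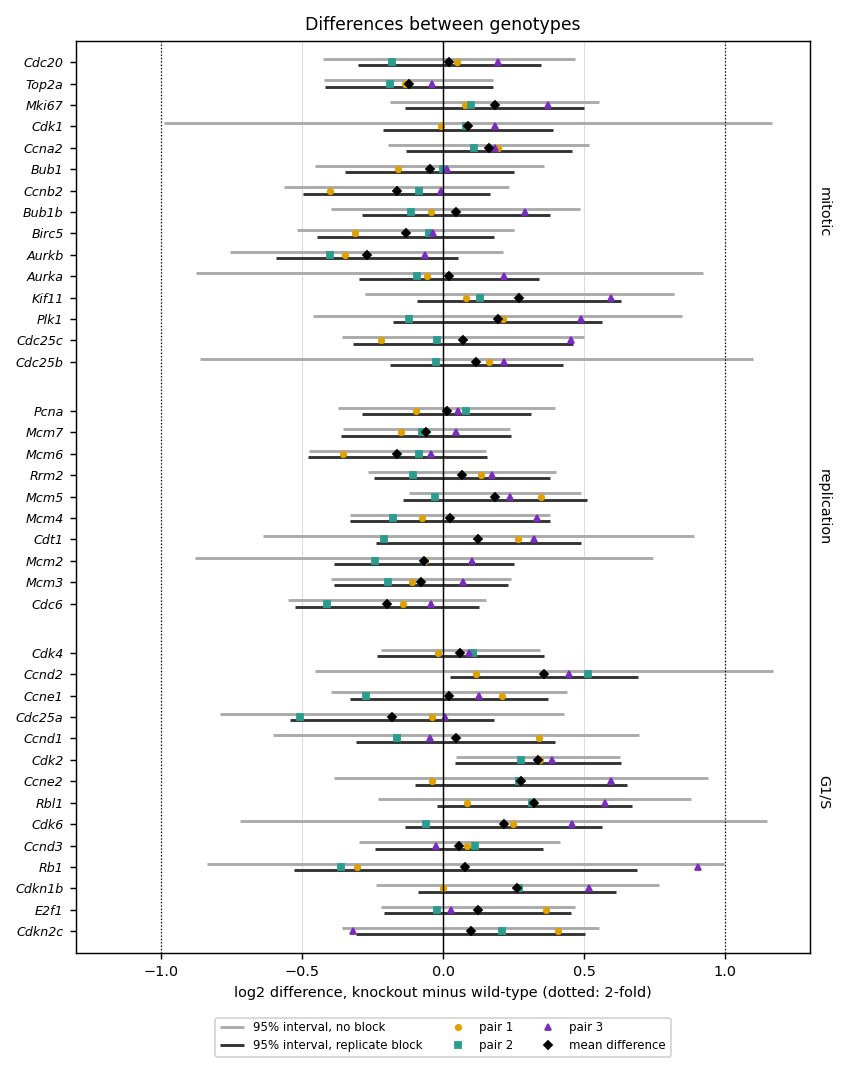
Difference between knockout and wild-type arrays in log2 units for 39 cell cycle genes, grouped by role. Diamonds are mean differences of 3 against 3 arrays, coloured points the differences within each replicate number, and bars the 95% intervals from limma without the block (grey) and with it (black). Every mean lies between −0.27 and 0.36, and each black bar lies inside the dotted lines at 2-fold.

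The G1/S genes, which drive and restrain entry into S phase, were higher in knockout arrays in 13 of 14 by value, with a median difference of 0.11. Among all genes the median was −0.01 and 46.3% were higher. The group median stayed positive with any 1 array left out, but its size moved with single arrays. Leaving out knockout array 1, 2 or 3 gave 0.024, 0.17 or 0.20, and leaving out wild-type array 1, 2 or 3 gave 0.16, 0.19 or 0.073. Ccnd2, a D-type cyclin gene, read 12.22, 11.58 and 11.05 in wild-type replicates 1, 2 and 3 and 12.34, 12.10 and 11.50 in knockout. Knockout was higher at each number, while the groups overlapped because the numbers differed by more than the genotypes. Its difference of 0.36 (SE 0.34) did not pass (limma, adjusted p = 1.00; adjusted p = 0.503 with the block). All 7 probe sets of Ccnd2 read higher in knockout, by 0.36 to 0.68. Leaving out wild-type array 3 gave 0.075, knockout array 1 gave 0.18, knockout array 3 gave 0.60, and wild-type array 1 gave 0.66.

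Cdk2, the kinase partner of cyclin E, was the 1 member higher in every knockout array than in every wild-type array. It read 9.80, 9.98 and 9.84 in wild-type and 10.14, 10.26 and 10.23 in knockout arrays. The groups did not overlap, as held for 3.45% of all genes in this direction. Its difference was 0.34 (SE 0.12), or 1.26-fold, with an interval of 0.05 to 0.63, and it did not pass (limma, adjusted p = 1.00, unadjusted p = 0.0288). It stayed between 0.30 and 0.39 with any 1 array left out. The other Cdk2 probe set read 3.14 and 3.25, near the floor of the arrays.

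The retinoblastoma relative Rbl1, chosen for description after its values were seen, read 9.67, 9.97 and 9.25 in wild-type and 9.75, 10.28 and 9.82 in knockout arrays. Knockout was higher at each number and the groups overlapped, with a difference of 0.32 (SE 0.23; limma, adjusted p = 1.00). Leaving out wild-type array 3 gave 0.13, knockout array 2 gave 0.16, and wild-type array 2 gave 0.49. Cdk4, the partner of D-type cyclins, read 13.13, 12.96 and 13.03 in wild-type and 13.12, 13.06 and 13.13 in knockout arrays, a difference of 0.06 (SE 0.12) with overlapping groups. The other D-type cyclins differed by less than Ccnd2 in value, with 0.04 for Ccnd1 and 0.06 for Ccnd3. The E-type cyclins Ccne1 and Ccne2 differed by 0.02 and 0.28. Cdc25a, a phosphatase that activates CDK2, was the 1 G1/S member lower in knockout by value, at −0.18. Rb1, the retinoblastoma gene, read 8.59, 8.36 and 7.08 in wild-type and 8.28, 8.00 and 7.98 in knockout arrays. The low array was wild-type replicate 3. The difference of Rb1 in pair 3 was 0.90, and those of pairs 1 and 2 were −0.30 and −0.36.

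CDK inhibitors, which brake the same step, also lay higher by value. Of 7 inhibitor genes, members Cdkn1b and Cdkn2c and 5 others, 7 had a higher mean in knockout arrays, beside 46.3% of all genes. At each number 4 were higher, beside 13.5% of all genes. Of these 4, Cdkn2a read only 4.37 to 5.03, below the median of all probe sets. The set of 7 was picked out after its values were seen. Cdkn2b, an inhibitor of CDK4 and CDK6, read 6.41, 6.02 and 6.79 in wild-type and 7.81, 6.40 and 7.29 in knockout arrays, groups that overlapped. Its difference of 0.76 (SE 0.38) was the largest in size among the cell cycle genes (limma, adjusted p = 1.00; adjusted p = 0.304 with the block). Cdkn1c, an imprinted inhibitor gene, read 10.27, 9.44 and 9.75 against 10.61, 10.32 and 10.08, a difference of 0.52 (SE 0.25; adjusted p = 1.00; adjusted p = 0.358 with the block). Cdkn1a, a p53 target, differed by 0.46, with knockout lower at number 2. Cdkn1b, which binds cyclin E with CDK2, read 8.27, 7.88 and 7.50 in wild-type and 8.27, 8.15 and 8.02 in knockout arrays.

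Of the 10 replication genes, 5 were higher and 5 lower in knockout by mean, with a median of −0.02. This median ran from −0.094 without wild-type replicate 3 to 0.043 without wild-type replicate 1. For the 7 on chromosomes other than 8 and 11 it was −0.06, with 3 higher and 4 lower. The split was not even by replicate: knockout was higher for 3, 1 and 8 of the 10 at numbers 1, 2 and 3. All 10 belonged to the highest of 10 equal bins of genes by mean reading. A reading compares 1 probe set across arrays and does not rank genes by amount of RNA. Pcna, the sliding clamp of DNA polymerase, read 13.86, 14.03 and 14.14 in wild-type and 13.77, 14.11 and 14.19 in knockout arrays. These differed by 0.01, with an interval of −0.37 to 0.40. Mcm7, a helicase subunit, read 13.69, 13.54 and 13.61 against 13.55, 13.46 and 13.66, a difference of −0.06 (SE 0.12).

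Mcm6, another helicase subunit, was the 1 member lower in every knockout array than in every wild-type array, as held for 4.47% of all genes in this direction. It read 13.33, 13.10 and 13.03 in wild-type and 12.98, 13.01 and 12.99 in knockout arrays. The gap between the groups was narrow, at wild-type replicate 3 and knockout replicate 2, and the difference of −0.16 (SE 0.13) did not pass (limma, adjusted p = 1.00). Of its 3 probe sets, the others differed by −0.09 and 0.08, and the last of these read 3.53 and 3.61, near the floor of the arrays. The 6 helicase subunits Mcm2 to Mcm7 differed by −0.16 to 0.18, with 4 lower and Mcm4 and Mcm5 higher. Rrm2, which makes deoxynucleotides, differed by 0.07, and the helicase loaders Cdc6 and Cdt1 by −0.20 and 0.13.

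The mitotic genes were higher by value in 10 of 15, with a median of 0.05. The sign of this median turned with single arrays: leaving out knockout array 3 gave −0.088, wild-type array 3 gave −0.014, and knockout array 1 gave 0.096, the highest. Cdc20 read 13.32, 13.00 and 12.97 in wild-type and 13.37, 12.82 and 13.16 in knockout arrays, a difference of 0.02 (SE 0.19). Top2a, the topoisomerase that untangles chromosomes, read 12.77, 12.96 and 12.86 against 12.63, 12.77 and 12.82. Knockout was lower at each number while the groups overlapped, with a difference of −0.12 (SE 0.13; limma, adjusted p = 1.00). Mki67, the proliferation marker Ki-67, differed by 0.18 and was higher at each number, with overlapping groups. Among the other members, Kif11, a spindle motor, differed by 0.27, Plk1, a mitotic kinase, by 0.19, and Ccna2, the gene of cyclin A, by 0.16. Ccnb2, the measured B-type cyclin, differed by −0.16, and the checkpoint kinases Bub1 and Bub1b by −0.05 and 0.05.

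Aurkb, a kinase of the chromosomal passenger complex, had the lowest difference of all members. It read 10.87, 10.73 and 10.22 in wild-type and 10.52, 10.33 and 10.16 in knockout arrays. Knockout was lower at each number and the groups overlapped, with a difference of −0.27 (SE 0.20; limma, adjusted p = 1.00; adjusted p = 0.669 with the block). It was −0.14 without wild-type replicate 1 and −0.46 without wild-type replicate 3. Birc5, of the same complex, differed by −0.13. Both genes lie on chromosome 11, where the median difference of all genes was −0.17. Incenp and Cdca8, also of that complex and on other chromosomes, differed by 0.11 and −0.03. Aurka, a kinase of the spindle poles, differed by 0.02. Over the 39 members 6 were higher at each number and 6 lower, beside 13.5% and 14.9% of all genes.

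**Figure D2:**
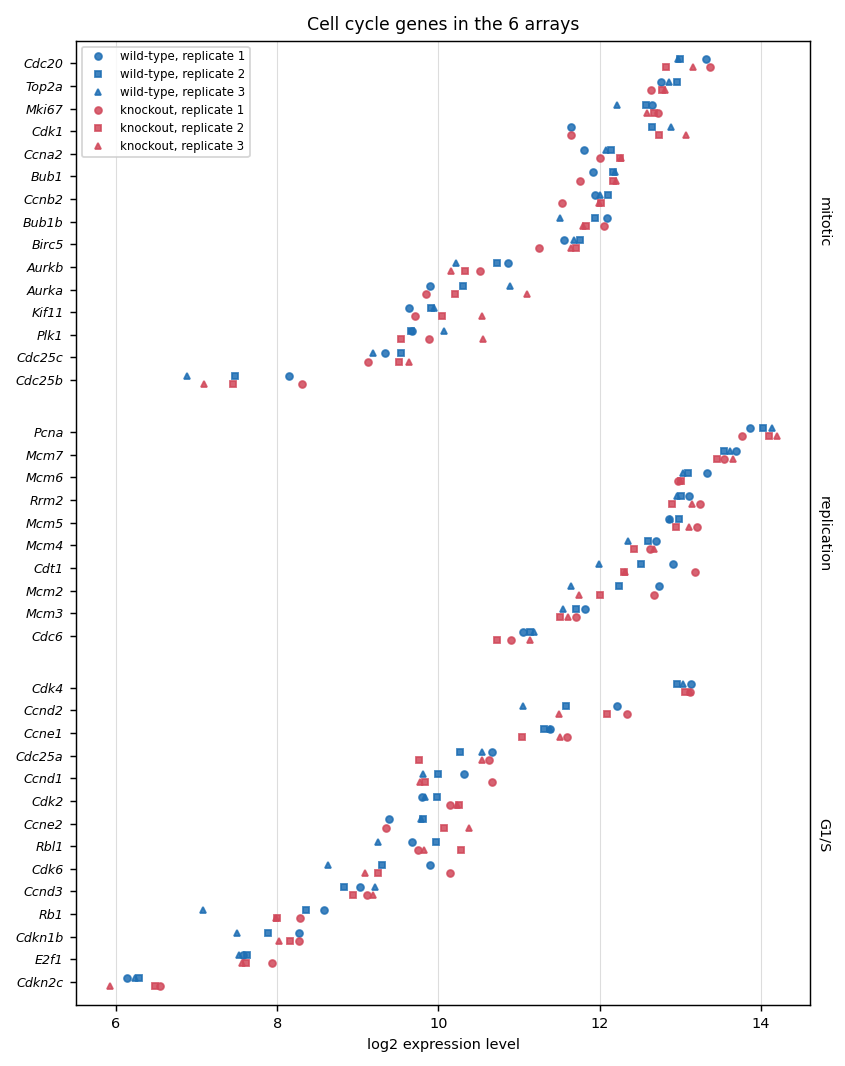
Log2 expression level of 39 cell cycle genes in 3 wild-type (blue) and 3 knockout (red) arrays, with circles, squares and triangles for replicates 1, 2 and 3, grouped by role. The genotypes lie on top of each other in most rows, and only Cdk2 and Mcm6 have groups that do not overlap.

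Several cell cycle genes differed between replicate numbers in the same way in both genotypes. For each gene the mean of the 2 arrays of a number was taken, and the range of these means over the 3 numbers is given as a description. Its median was 0.35 over the 39 members, 0.32 over all genes and 0.43 over the genes in the 3 highest bins of level, and the members lay between the last 2.

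The widest range was that of Cdk1, the kinase of mitotic entry, at 1.33. It read 11.65, 12.65 and 12.88 in wild-type and 11.64, 12.73 and 13.07 in knockout arrays, so that number 1 was low in both genotypes. Aurka read 9.90, 10.30 and 10.88 against 9.85, 10.21 and 11.10, with number 3 high. Cdc25b, a phosphatase that activates CDK1, went the other way and read 8.15, 7.47 and 6.88 against 8.31, 7.45 and 7.09. Mcm2, a helicase subunit, read 12.74, 12.24 and 11.64 against 12.67, 12.00 and 11.74. For these 4 genes, chosen after their values were seen, the order of the numbers was the same in both genotypes. That held for 22 of 39 members (56.4%), for 46.4% of genes in the 3 highest bins and for 31.3% of all genes.

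The numbers did not move the cell cycle genes as 1 block. Number 1 was the lowest of the 3 in 12 of 39 members and the highest in 21. Over all 18193 genes it was the lowest in 5954 and the highest in 7057, and over 5458 genes of the 3 highest bins in 2115 and 2286. The 109 further cell cycle genes described below went the other way, with 54 lowest and 37 highest. Among the mitotic genes it was the lowest in 9 of 15, Cdk1, Aurka, Kif11 and Bub1 among them. Among the G1/S genes it was the highest in 9 of 14, with Ccnd1, Ccnd2, Cdk6 and Cdkn1b among them, and among the replication genes in 7 of 10. Cdk6, a partner of D-type cyclins, read 9.89, 9.30 and 8.63 in wild-type and 10.14, 9.25 and 9.08 in knockout arrays. The 3′ to 5′ gap of the Gapdh control also differed by number, with number 3 apart from numbers 1 and 2. In wild-type arrays 1, 2 and 3 it was 3.37, 3.68 and 1.54, and in knockout arrays 3.76, 4.20 and 1.44. The part of this gap in these values was not tested. In bulk samples a change in the share of dividing cells and a change of RNA per cell cannot be told apart.

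**Figure D3:**
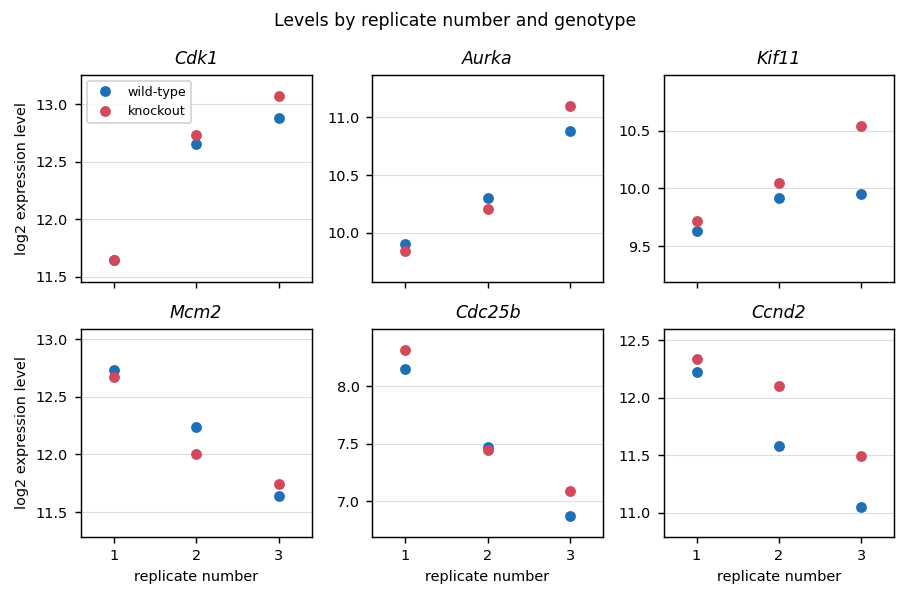
Log2 expression levels of 6 members by replicate number, with wild-type in blue and knockout in red and the same height of axis in each panel. Cdk1, Aurka and Kif11 are lowest at number 1 and Mcm2, Cdc25b and Ccnd2 highest there, in both genotypes.

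Set apart by replicate number, the members lay at 0 or a little below in pairs 1 and 2 and higher in pair 3. Their median difference was −0.01, −0.06 and 0.18 in pairs 1, 2 and 3, and 18, 14 and 30 of 39 were higher in knockout, where 49.7%, 50.7% and 48% of all genes were. The median of the G1/S genes was positive in all 3 pairs, at 0.10, 0.11 and 0.26, with 9, 8 and 11 of 14 higher. Only 3 of the 14 were higher at each number, beside 13.5% of all genes. The replication genes stood at −0.09, −0.14 and 0.09, and the mitotic genes at −0.04, −0.05 and 0.20. With both arrays of number 3 left out, 20 of 39 members were higher, and with array weights 18, where the main count was 28.

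Genes of like level moved much the same way in pair 3. Over all genes split into the 10 bins of mean level, the median difference of that pair ran from −0.31 in bin 4 to 0.22 in bin 8, and it was 0.11 in bin 10, the highest, which held 22 of the 39 members. With the median of each gene's own bin subtracted, the members' median in pair 3 was 0.06, and 0.03 and −0.05 in pairs 1 and 2. The same value for the G1/S genes was 0.15, 0.14 and 0.11, for the replication genes −0.06, −0.14 and −0.03, and for the mitotic genes 0.01, −0.05 and 0.07. Over the means of the 3 pairs, 12 of 14 G1/S, 3 of 10 replication and 8 of 15 mitotic members lay above the median of their bin. Pluripotency markers were also higher in that pair: the median of 8 genes was 0.02, 0.06 and 1.11 in pairs 1, 2 and 3, and 0 of 8 passed in limma (1 with the block, Dppa5a). Their mean level ran from 8.39 to 8.81 in wild-type and 8.59 to 9.18 in knockout arrays, and their median over 8 genes rested on 6 higher and 2 lower. Other marker lists also differed by value. Haemangioblast and early endothelial markers stood at 0.55, −0.19 and −0.54 in pairs 1, 2 and 3, with 8, 4 and 2 of 10 higher, and their mean level ran from 8.63 to 8.96 in wild-type and 8.03 to 9.23 in knockout arrays. Primitive red cell markers stood at −0.78, −1.31 and −0.84, with 1 of 7 called (Hbb-bh1; 3 with the block) and mean levels of 6.53 to 6.57 against 5.28 to 5.41. Cardiac mesoderm markers stood at −0.72, −0.23 and −0.74, with 0 of 8 called (1 with the block, Hand2) and mean levels of 8.98 to 9.61 against 8.26 to 8.61. Definitive endoderm markers stood at 0.04, −0.15 and 0.0019, with 0 of 8 called in either fit. The part of these cell types in the cell cycle values was not tested.

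**Figure D4:**
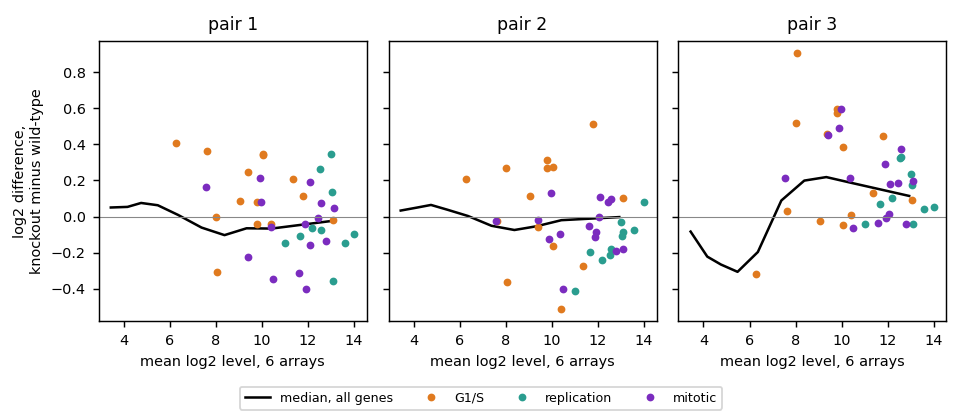
Difference between knockout and wild-type in log2 units within each replicate number, against the mean log2 level over 6 arrays. Points are the 39 members by role and the line is the median of all genes in each of 10 bins of level, which in pair 3 rises above 0 at the levels where most members lie.

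The members on chromosomes 8 and 11 had the sign that most genes of these chromosomes had. Of the genes of chromosome 8, 71% lay higher in knockout, with 0.15 as their median, and of those of chromosome 11 19.6% did, with −0.17. Both members on chromosome 8, Mcm5 and Cdt1, lay higher, at 0.18 and 0.13. All 4 members on chromosome 11, Cdc6, Aurkb, Birc5 and Top2a, lay lower, at −0.20, −0.27, −0.13 and −0.12. With the chromosome's median subtracted, these 6 lay between −0.10 and 0.05. Over the 33 members on other chromosomes the median was 0.07, and 26 were higher.

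Further genes of the cell cycle, from lists of 26 G1/S, 36 replication and 48 mitotic genes, were measured for 109 of 110. The limma fit called 0 of them, with or without the block (lowest blocked adjusted p = 0.304). Before adjustment 1 of 109 (Gins3) lay below 0.05, beside 3.85% of all genes, and in the blocked fit 6 of 109 did, all higher, beside 8.94% of all genes. The medians were 0.14, 0.03 and 0.06 in the order of the lists, and 17 of 26, 22 of 35 and 35 of 48 were higher. By pair the 109 genes stood at −0.01, 0.01 and 0.20, with 97 higher in pair 3, beside 48% of all genes. Of the 109, 91 lay in the 3 highest bins of level. The pair 3 median of all genes in bins 8, 9 and 10 was 0.22, 0.19 and 0.11. The CHR match stood in 65.1% of 43 windows of the further mitotic genes, in 17.1% of 35 replication windows and in 36.7% of 30 G1/S windows, the last unlike the 0 of 12 among the members.

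Of the 6 genes at a blocked unadjusted p under 0.05, 4 lie on chromosome 8. They were 4 of the 8 further genes there (50%). Of all genes, 23% on chromosome 8 reached that p, beside 7.06% on chromosomes other than 8 and 11. The 4 on chromosome 8 were Gins3, Orc6, Ckap2 and Tfdp1, and the others were Cdkn2b and Cdkn1c. Gins3, a subunit of the replication fork complex GINS, read 8.61, 8.90 and 8.17 in wild-type and 9.08, 9.20 and 9.15 in knockout arrays. Its groups did not overlap, and its difference was 0.58 (SE 0.20; limma, adjusted p = 1.00; adjusted p = 0.310 with the block). Orc6, of the origin recognition complex, differed by 0.44, Ckap2, a spindle protein gene, by 0.42, and Tfdp1, the partner of E2F factors, by 0.38. All 8 further genes on chromosome 8 were higher, from 0.18 to 0.58, with a median of 0.34 beside 0.15 for all genes there. With the chromosome's median subtracted, these 8 lay between 0.03 and 0.43. On chromosome 11, 3 of 4 were lower, Rpa1, Hmmr and Pttg1, at −0.30, −0.24 and −0.21, and Tk1 was higher at 0.15. The 97 further genes on other chromosomes had a median of 0.05.

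**Figure D5:**
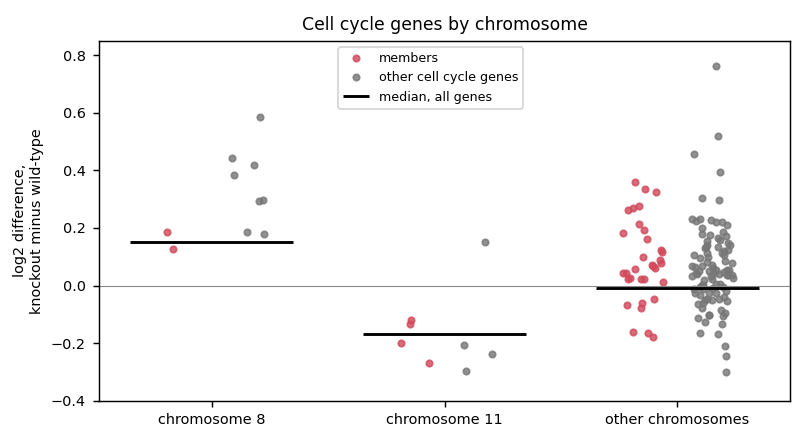
Difference between knockout and wild-type in log2 units of 39 members (red) and 109 further cell cycle genes (grey), split by chromosome, with points spread sideways for sight. Black lines are medians of all genes at 0.15, −0.17 and −0.01, and all cell cycle genes of chromosomes 8 and 11 but Tk1 lie on the same side of 0 as that line.

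Probe sets of the same member did not always lie on the same side of 0. Of 29 members with more than 1 probe set, 19 had all of them on 1 side. The largest disagreement in a member was that of Cdc25a, whose 3 probe sets ran from −0.22 to 0.32, and Bub1 ran from −0.05 to 0.39, with its second probe set reading 6.01 and 6.41. Ccnd2, with 7 probe sets, and Rbl1, with 4, lay on 1 side throughout. Outside the cell cycle lists, the genes whose levels over the 6 arrays were most like the mean of the mitotic members were Rrn3, Ebna1bp2 and Tbccd1, each with a Pearson r of 0.99 as a description of these 6 arrays. The mitotic members did not share 1 profile, and their own r with this mean ran from −0.63 for Cdc25b to 0.89 for Kif11.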

How the data were processed

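RNA of 6 samples was measured on Affymetrix mouse expression arrays, 1 array per sample. The authors' deposited values are log2 levels, 1 per probe set. The submitters' processing notes name RMA and affy, with no version, and no further step is given in the sources used here. Each array held 45101 probe sets, 64 of them controls; 34945 had exactly 1 gene in the annotation, for 18193 genes, and 18032 of these had a chromosome in GRCm38.p6. Per gene the probe set with the highest mean was used. Genotypes were compared with limma 3.58.1 (lmFit, eBayes; R 4.3.3, jsonlite 2.0.0) over all genes with Benjamini-Hochberg adjustment at 0.05, without and with the replicate number as a block; the fits were tested on simulated data. Deviations from the genotype mean correlated across probe sets at 0.698, 0.350 and 0.446 between arrays of the same number, so the numbers pair the arrays by this measure, though the labels do not say why. Within the 39 members these were 0.87, 0.67 and 0.81 across genes, which are not independent.

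Members and lists were chosen with earlier results of these data known. All members may be named; values in every array are given for those at a p under 0.05 in either fit, those whose genotypes do not overlap and the 2 of highest mean per role, and for others where the text says so. Kif11, Cdk6, Cdkn1b, Rb1 and Gins3 were added after their values were seen, as were Cdk1, Aurka, Mcm2, Cdc25b and Aurkb. Of the further genes the 2 largest differences per list are named, and others were added after their values were seen. Level bins, chromosomes and pairs are described with no test. Each array left out, filters, normalisation, variance models, array weights and probe set choices were tried. The number of arrays limits the precision. Python 3.11.15, pandas 2.3.3 and matplotlib 3.10.9 were used for promoters and figures.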

Additional observations from a re-analysis of the deposited data

How the results depend on the processing

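Across 21 alternative settings, 7 of them chosen after seeing the data, 0 members were called, with a lowest adjusted p of 0.150 (limma, block, both arrays of number 3 left out). The members' median ran from −0.014 with array weights to 0.12. The number of genes called over the whole array moved from 4 to 62 with the replicate block, 68 with array weights and 48 with the block and averaged probe sets; leaving out 1 array gave 1 to 6. With both arrays of number 1, 2 or 3 left out it was 1, 1 and 2 without the block and 50, 267 and 815 with it. The G1/S median was 0.23 without both arrays of number 2, with or without the block, and 0.024 to 0.20 with 1 array left out. The block changed no call of a member.

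Uncalled differences near 0 changed sign. With 1 array left out, Pcna ran from −0.074 to 0.14, Cdk1 from −0.28 to 0.51, Aurka from −0.34 to 0.29, Mcm2 from −0.35 to 0.20, Cdc20 from −0.11 to 0.17 and Cdc25b from −0.23 to 0.44. Such a fit leaves 1 replicate number in 1 genotype only. Within replicate numbers, Pcna differed by −0.10 to 0.08, Cdk1 by −0.006 to 0.19 and Aurka by −0.09 to 0.22. Mcm2 differed there by −0.24 to 0.10, Cdc20 by −0.18 to 0.20 and Cdc25b by −0.03 to 0.22. With array weights Cdc20 was −0.047 and Cdc25b −0.014, with averaged probe sets Aurka was −0.023 with or without the block, and without the _x_at and _s_at probe sets, which are less specific, Cdc20 was −0.032. Without both arrays of number 2, Pcna was −0.022 and Mcm2 0.019, and without those of number 3 Pcna was −0.0077, Cdc20 −0.066 and Aurka −0.075, block or not. The cause was not tested. With 3 arrays per genotype, a difference of 1.5-fold lay inside the interval of 17 members without the block and of 8 with it.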
